A study of Mus musculus with 9 samples.

Results

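The 10 genes described here control the step of a cell from G1 into S phase. They are the D cyclins Ccnd1, Ccnd2 and Ccnd3, their kinases Cdk4 and Cdk6, and the retinoblastoma gene Rb1. The others are the transcription factor E2f1, the E cyclins Ccne1 and Ccne2, and the kinase Cdk2. The 10 genes were chosen by symbol from the 24411 genes of the deposited table. All 10 passed the filter on low values that left 11753 genes for testing. Their mRNA expression was compared among 9 lines of mouse macrophages that grow in culture with M-CSF. The 3 YS lines had been established from the yolk sac and the 3 FL lines from the fetal liver of C57BL/6 embryos, at E9.5 and E14.5 respectively. The 3 BM lines had come from adult bone marrow of the same strain. No gene was altered in any group, and all the lines shared the medium with recombinant human M-CSF. Starting cells were pooled from several animals, and each line was the bulk culture of a separate dish or well. Growing colonies were collected on the way to stable lines, and how many cells founded a line is not given. The labels number the lines but do not say whether lines of a group came from separate animals, so p-values measure the spread between lines only.

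M-CSF takes macrophages through G1 largely by inducing D cyclins, and cyclin D1 was first cloned from mouse macrophages as a gene induced by this growth factor. A D cyclin joins CDK4 or CDK6, and the pair phosphorylates RB. Phosphorylated RB lets go of E2F factors such as E2F1, which then switch on cyclin E and the genes of DNA replication, and cyclin E with CDK2 phosphorylates RB further.

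All D cyclins begin with the motif LxCxE (leucine, any residue, cysteine, any residue, glutamate), by which they bind RB. The first 60 coding bases of each are shown, since the largest differences among the 10 genes were those of Ccnd2 and Ccnd3. Capitals mark the codons of the motif, and the sequences are GENCODE M21 transcripts on GRCm38.
Ccnd1, chr7:144939634-144939693, minus strand: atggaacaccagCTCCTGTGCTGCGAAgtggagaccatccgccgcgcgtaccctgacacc
Ccnd2, chr6:127150714-127150773, minus strand: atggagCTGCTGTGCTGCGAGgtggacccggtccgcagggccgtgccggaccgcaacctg
Ccnd3, chr17:47593655-47593714, plus strand: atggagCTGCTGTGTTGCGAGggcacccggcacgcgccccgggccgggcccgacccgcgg
Of the 15 motif bases, Ccnd2 and Ccnd3 shared 14, Ccnd1 and Ccnd2 shared 13, and Ccnd1 and Ccnd3 shared 12. Over the whole coding sequence, with the motif included, the genes were 61.4% to 65.9% identical. The longest identical stretch between transcripts of any D cyclins was 20 bases, which is shorter than the reads of 75 nt. For Ccne1 and Ccne2 it was 18 bases, and among Cdk2, Cdk4 and Cdk6 it was at most 34 bases.

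Values are TPM, a unit that divides reads by transcript length and then scales each library to one total. Library depth cannot be read from TPM, so it is unknown here, and the error of a value is the spread among 3 lines. Differences are on the log2(TPM + 1) scale, with adjusted p-values from limma over all 11753 genes. A gene was called at an adjusted p under 0.1 and a change over 2-fold. Exact permutation tests of 3 lines against 3 cannot give a two-sided p under 0.1. All 12 macrophage markers examined were at or above 1 TPM in every line, and every mast cell, lymphocyte and fibroblast marker was under 1 TPM. Of 10 monocyte and granulocyte markers, 6 were under 1 TPM in every line, and the highest value was 25.11 TPM for S100a8 in FL line 2. Of 5 hepatocyte and endoderm markers, 4 were under 1 TPM in every line, and Afp reached 20.45 TPM in FL line 3. Of the lines, 2 stood apart. YS line 1 had a Pearson's r across genes of 0.942 with YS line 2 and 0.912 with YS line 3, which had 0.96 with each other. BM line 2 held transcripts that the other BM lines lacked. Of 45 genes under 0.5 TPM in the BM lines 1 and 3 but at 20 TPM or more in YS line 2, its median level was 14.1% of that in YS line 2, with an interquartile range of 10.7% to 17.7%. The same reading against each other YS or FL line gave lower medians, from 3.24% to 8.38%. BM line 2 also held Hba-a1 at 215.0 TPM, which was listed at 0 in YS line 2. Where leaving out a line ended a call or moved a called value by more than 1.5 times, the value without it is given beside the result.

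D cyclins were higher in both embryonic groups than in BM lines. Of the 10 genes, 3 were called higher in YS lines than in BM lines (Ccnd2, Ccnd3 and Ccne1), where 7.57% of all genes tested were called higher. In FL lines 2 were called higher than in BM lines (Ccnd2 and Ccnd3), against 6.01% of all genes. None was called between YS and FL lines in limma, where 3.79% of all genes were called in either direction and 2 of the 10 had an unadjusted p under 0.05. At an adjusted p under 0.1 and any fold, 6 genes rose and 1 fell in YS lines relative to BM lines, against 23.5% and 14.4% of all genes. In FL lines 5 rose and none fell relative to BM lines, against 17.0% and 10.6% of all genes. The 2 comparisons share the BM lines. Groups did not overlap for 7 of the 10 genes in YS against BM lines and for 7 in FL against BM lines, where 49.0% and 49.5% of all genes did not overlap. Between YS and FL lines only E2f1 did not overlap, against 26.1% of all genes. The median difference of the 10 genes was 0.53 in YS against BM lines, 0.41 in FL against BM lines and 0.09 in YS against FL lines, beside 0.11, 0.09 and 0.02 for all genes.

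**Figure D1:**
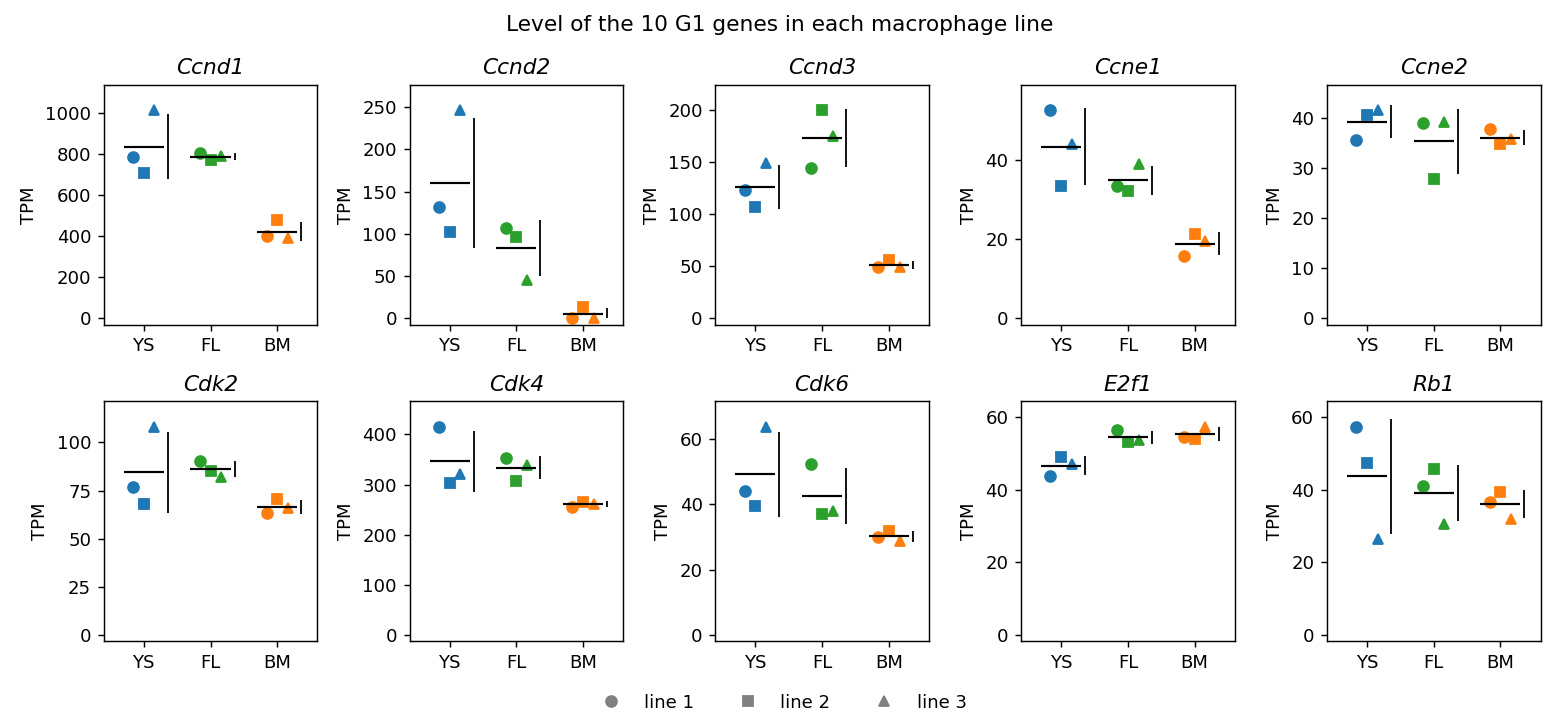
TPM of the 10 genes in each line (linear axes, circle, square and triangle for lines 1, 2 and 3), with the mean of each group as a horizontal bar and 1 SD to either side as a vertical bar (cut off at 0 for Ccnd2 in BM lines). Ccnd1, Ccnd2, Ccnd3 and Ccne1 were lowest in the BM lines, Ccne2 and Rb1 overlapped among all groups, and E2f1 was lowest in the YS lines.

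Ccnd1 was the most abundant of the 10 genes in all groups. It was at 783.9, 707.9 and 1014 TPM in the YS lines, at 803.9, 768.3 and 788.8 TPM in the FL lines, and at 402.3, 477.1 and 388.8 TPM in the BM lines. Every YS and FL line was thus above every BM line, and the FL lines lay within the range of the YS lines. The rise over BM lines was 0.97 on the log2 scale in YS lines (SE 0.15, adjusted p = 0.0035) and 0.90 in FL lines (SE 0.15, adjusted p = 0.0041). Both passed the test but stayed just under 2-fold, so Ccnd1 was not among the called genes. In YS lines it was called in 4 of 18 alternatives: with quantile normalization (1.01), without YS line 1 (1.01), without YS line 2 (1.08) and without BM line 2 (1.06). As these are bulk libraries, fewer expressing cells and less mRNA per cell cannot be told apart.

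Ccnd2 showed the widest range of the 10 genes. The YS lines had 132.0, 101.9 and 246.6 TPM and the FL lines 107.3, 96.22 and 45.48 TPM. Among the BM lines, line 1 was listed at 0, line 2 had 13.97 TPM and line 3 had 0.10 TPM. The highest BM line was therefore below the lowest FL line, and 2 of 3 BM lines held next to no Ccnd2 mRNA. The fitted rise over BM lines was 5.88 in YS lines (SE 0.95, adjusted p = 0.0044) and 4.95 in FL lines (SE 0.95, adjusted p = 0.0084). These sizes depend on the pseudocount, and ranged from 4.53 to 7.83 in YS lines and from 3.62 to 6.89 in FL lines over the alternatives, with the call kept in all 18 of them. Without BM line 2 the rise was 7.16 in YS lines and 6.23 in FL lines. Without BM line 1 it was 5.21 and 4.28, and without BM line 3 it was 5.28 and 4.35. In BM line 2, Ccnd2 stood at 13.7% of its level in YS line 2, inside the interquartile range given above for the 45 genes. Ccnd2 itself meets the rule that defines those genes. Against the other YS and FL lines it stood at 5.67% to 30.7%. Between YS and FL lines the difference was 0.93 with a 95% interval from -1.23 to 3.09 and an adjusted p of 0.56, a range too wide to tell the groups apart.

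Markers of other cell types were examined beside Ccnd2, since some moved with it. The summed endothelial markers (Pecam1, Cdh5, Kdr, Tek and Emcn) were 5.37 to 56.04 TPM in the YS lines, 18.88 to 51.78 TPM in the FL lines and 0.08 to 1.70 TPM in the BM lines. Kdr, the receptor for VEGF, made up most of the sum in every YS and FL line other than YS line 1, and reached 54.35 TPM in YS line 3. The endothelial receptor gene Tek was at or under 0.04 TPM in all lines and Emcn was listed at 0. Of 5 progenitor markers, Cd34 reached 18.35 TPM, whereas Kit was at or under 0.03 TPM and Flt3 was listed at 0. YS line 1, with 132.0 TPM of Ccnd2, had 0.29 TPM of Kdr, 4.91 TPM of Pecam1 and 16.17 TPM of Cd34. The summed progenitor markers were 1.70 to 17.74 TPM in the YS lines, 1.2 to 18.43 TPM in the FL lines and at most 0.28 TPM in the BM lines. The 9 erythroid and megakaryocyte markers summed to 242.1 to 2125 TPM in the YS lines, 617.4 to 1734 TPM in the FL lines and 39.21 to 622.7 TPM in the BM lines. Pf4, a chemokine gene of megakaryocytes, was at 226.3 to 2122 TPM in the YS lines, 615.1 to 1729 TPM in the FL lines and 69.80, 392.6 and 38.46 TPM in the BM lines, with BM line 2 the highest of these as for Ccnd2. Epor, the erythropoietin receptor gene, was at 0.49 to 6.43 TPM in the YS lines, 1.6 to 5.29 TPM in the FL lines and at most 0.62 TPM in the BM lines, and Hbb-bs was listed at 0 in all lines. The part of such cells in the Ccnd2 difference was not tested.

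The genomic surroundings of Ccnd2 were also read. An antisense gene on the opposite strand, 9330179D12Rik, overlaps it in GENCODE M21. It was at 2.04, 4.80 and 2.63 TPM in the YS lines, at 6.04, 5.31 and 2.62 TPM in the FL lines, and at 0, 0.56 and 0.14 TPM in the BM lines. As for Ccnd2 the BM lines were lowest, but the mean of FL lines was above that of YS lines, and in YS and FL lines the levels were many times below those of Ccnd2. The libraries kept the strand, but the strand setting of the counting is not given in the sources used here, so reads of the pair may not be fully separated. On one side the nearest coding gene, Tigar, a regulator of glycolysis, had 16.09 to 37.65 TPM in the YS lines, 22.95 to 31.60 TPM in the FL lines and 13.93 to 15.52 TPM in the BM lines. On the other side Parp11, a mono-ADP-ribosyltransferase gene, had 38.10 to 81.71, 19.13 to 44.26 and 12.27 to 18.18 TPM. Both neighbours were above 10 TPM in all BM lines, whereas Ccnd2 was so only in BM line 2, at a level close to that of Tigar. Fgf23 and Fgf6, which lie beyond Tigar, were listed at 0 in all lines.

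Ccnd3, the D cyclin of many blood cell types, was highest in FL lines. It was at 123.1, 107.5 and 149.4 TPM in the YS lines, at 144.6, 200.4 and 175.0 TPM in the FL lines, and at 49.91, 55.93 and 49.00 TPM in the BM lines. The BM lines lay close together and well below all the others. The rise over BM lines was 1.27 in YS lines (SE 0.16, adjusted p = 0.002) and 1.72 in FL lines (SE 0.16, adjusted p = 0.00053). Between YS and FL lines the difference was -0.45 (95% interval -0.81 to -0.09, adjusted p = 0.12), and YS line 3 overlapped FL line 1. Without YS line 3 it was -0.57 with an adjusted p of 0.068, and without FL line 1 it was -0.57 with an adjusted p of 0.08. Bysl, which overlaps Ccnd3 on the opposite strand, was at 18.37 to 27.51 TPM in the YS lines, 20.85 to 22.80 TPM in the FL lines and 12.25 to 13.61 TPM in the BM lines. Its BM lines were also below all the others, at lower levels, and how the counting treated strand is not given here either.

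Summed over the 3 genes, D cyclin mRNA was 1039, 917.3 and 1410 TPM in the YS lines, 1056, 1065 and 1009 TPM in the FL lines, and 452.2, 547.0 and 437.9 TPM in the BM lines. Ccnd1 supplied 88.3% ± 0.959 (SD, n = 3) of it in BM lines, against 74.8% ± 2.68 for the YS lines and 75.5% ± 3.06 for the FL lines. Ccnd2 supplied 12.7%, 11.1% and 17.5% in YS lines and 10.2%, 9.04% and 4.51% in FL lines, but only 0%, 2.55% and 0.0228% in BM lines. The Ccnd2 share did not overlap among the 3 groups and was highest in YS lines, but shares were not tested. YS and FL lines lay close, with 11.1% in YS line 2 and 10.2% in FL line 1. Between these groups 26.1% of all genes did not overlap, and the Ccnd2 level itself did not pass (limma adjusted p = 0.56). Ccnd3 supplied 16.6% ± 2.64 in FL lines, above each line of the other groups, where it was 11.4% ± 0.686 in YS lines and 10.8% ± 0.519 in BM lines. BM lines thus had fewer D cyclin transcripts, nearly all of them Ccnd1 and Ccnd3.

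**Figure D2:**
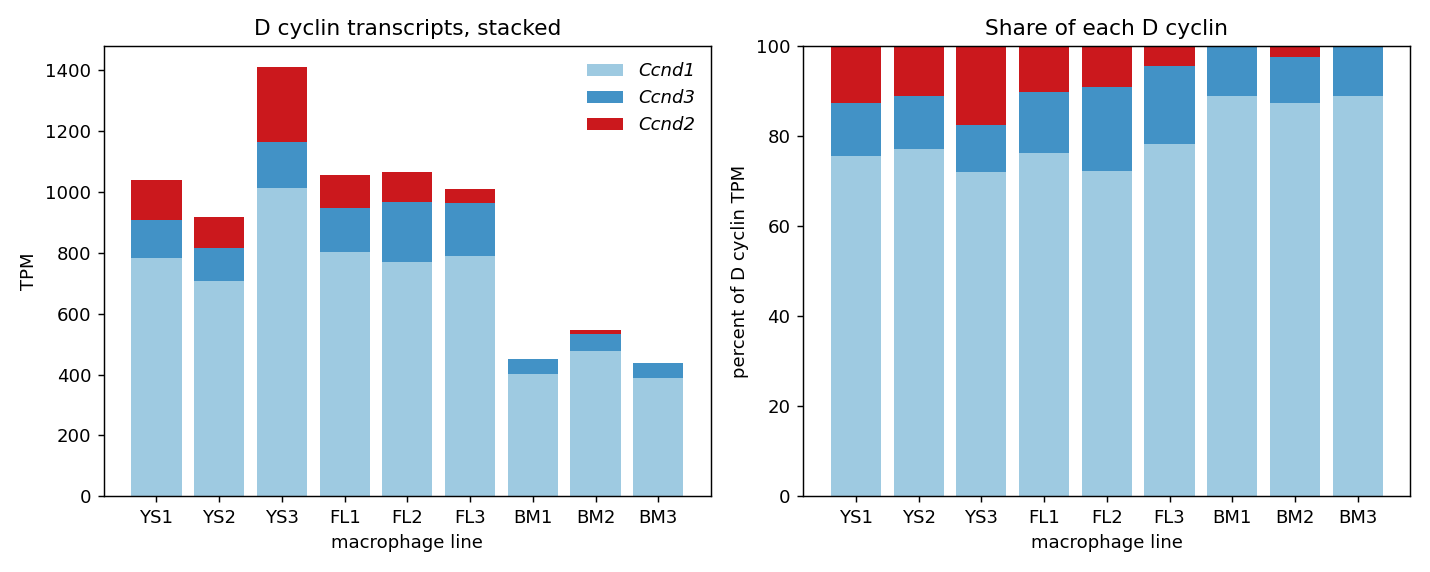
D cyclin transcripts in each line, as stacked TPM (left) and as percent of the D cyclin total (right). The totals of the BM lines (437.9 to 547.0 TPM) lie below those of the YS and FL lines (917.3 to 1410 TPM), and the Ccnd2 part is 2.55% or less in the BM lines.

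Cdk4, the main kinase partner of the D cyclins in these lines by mRNA, was second to Ccnd1 in all groups. It was at 415.7, 302.6 and 321.3 TPM in the YS lines, at 353.4, 308.0 and 338.8 TPM in the FL lines, and at 254.2, 266.0 and 262.0 TPM in the BM lines. Each YS and FL line was above each BM line, by a small margin. The rise over BM lines was 0.40 in YS lines (SE 0.13, adjusted p = 0.051) and 0.35 in FL lines (SE 0.13, adjusted p = 0.092). In YS lines it was lost when any 1 BM line was left out (adjusted p 0.11 to 0.15). In FL lines it held in only 8 of 18 alternatives and was lost under either other scaling (adjusted p = 0.22 and 0.16). Cdk6, the other kinase of the D cyclins, was several times lower. It was at 44.25, 39.46 and 63.85 TPM in the YS lines, at 52.44, 37.05 and 38.12 TPM in the FL lines, and at 29.89, 31.96 and 28.70 TPM in the BM lines. The groups did not overlap with BM lines. The rise was 0.66 in YS lines (SE 0.20, adjusted p = 0.039), which was lost without BM line 1 (adjusted p = 0.11) or BM line 3 (adjusted p = 0.12). In FL lines the difference was 0.47 (95% interval 0.02 to 0.92, adjusted p = 0.14), and it passed without YS line 3 (adjusted p = 0.057). The ratio of D cyclin to Cdk4 plus Cdk6 TPM was 1.65 ± 0.171 in BM lines (SD, n = 3), 2.87 ± 0.718 for the YS lines and 2.79 ± 0.261 for the FL lines, and the BM lines did not overlap the others.

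The promoter of Cdk4 is shown because it is unusual among those that could be read, which did not include Ccnd1, Ccnd2, Ccne2 or Rb1. It holds 4 copies of CACGTG, the E-box letters read by MYC, which M-CSF induces. The 250 bases before the RefSeq start site (GRCm38.p6, chr10:127063285-127063534, plus strand) follow with those letters in capitals.
Cdk4: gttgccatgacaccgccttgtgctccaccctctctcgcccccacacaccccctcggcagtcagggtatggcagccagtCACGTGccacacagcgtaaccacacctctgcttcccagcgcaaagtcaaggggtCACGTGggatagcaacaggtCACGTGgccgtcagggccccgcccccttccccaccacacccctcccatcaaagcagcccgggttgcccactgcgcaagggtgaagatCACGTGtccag
The letters read the same on both strands and begin at 172, 118, 98 and 11 bases before the start site. Of 32851 promoters of the same length, 6.02% held at least 1 copy and 7 promoters held at least 4 copies. Promoters of 6 of the 10 genes were read, and of these Cdk6 held 1 copy and Ccnd3, Ccne1, Cdk2 and E2f1 held none. Myc itself was at 182.9, 95.86 and 51.83 TPM in the YS lines, at 82.42, 49.95 and 61.46 TPM in the FL lines, and at 57.51, 60.56 and 70.43 TPM in the BM lines. It did not pass the test in YS or FL lines against BM lines (adjusted p = 0.26 and 0.98), and its 3 groups overlapped.

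Rb1 encodes the substrate of the cyclin D kinases and holds E2F factors in check. It was at 57.44, 47.34 and 26.51 TPM in the YS lines, at 41.05, 45.63 and 30.71 TPM in the FL lines, and at 36.75, 39.49 and 32.01 TPM in the BM lines. The spread within YS lines covered the whole range of the other groups. Its differences were 0.21 in YS against BM lines (95% interval -0.41 to 0.82, adjusted p = 0.59), 0.10 in FL against BM lines (-0.51 to 0.72, adjusted p = 0.83) and 0.11 in YS against FL lines (-0.51 to 0.72, adjusted p = 0.83). Without YS line 3, the first of these was 0.52 with an adjusted p of 0.072. Lpar6 and Rcbtb2 overlap Rb1 on the opposite strand and had another pattern. Lpar6, a lysophosphatidic acid receptor gene, was at 61.53 to 106.6 TPM in the YS lines, 40.19 to 70.39 TPM in the FL lines and 13.60 to 20.77 TPM in the BM lines. Rcbtb2 was at 85.78 to 216.9, 60.17 to 96.00 and 26.62 to 43.76 TPM.

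E2f1 was the only one of the 10 genes that fell in YS lines. It was at 43.85, 49.01 and 46.92 TPM in the YS lines, at 56.37, 53.22 and 53.54 TPM in the FL lines, and at 54.51, 54.02 and 57.35 TPM in the BM lines. The YS lines lay below all the other lines, and FL and BM lines overlapped. The fall relative to BM lines was small at -0.24 (SE 0.09, adjusted p = 0.078). It held in 10 of 18 alternatives and was lost, among others, without YS line 1 (adjusted p = 0.12), without FL line 3 (adjusted p = 0.11), without any 1 BM line (adjusted p 0.15 to 0.23) and with the replicate block (adjusted p = 0.12). Relative to FL lines the difference was -0.22 (SE 0.09, adjusted p = 0.17), and FL and BM lines differed by -0.02 (95% interval -0.23 to 0.18).

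Ccne1 and Ccne2, the E cyclins that E2F factors induce and that activate CDK2, behaved differently. Ccne1 was at 52.79, 33.49 and 44.26 TPM in the YS lines, at 33.60, 32.31 and 39.17 TPM in the FL lines, and at 15.91, 21.43 and 19.54 TPM in the BM lines. All YS and FL lines were above the BM lines. The rise over BM lines was 1.14 in YS lines (SE 0.18, adjusted p = 0.0044) and 0.86 in FL lines (SE 0.18, adjusted p = 0.013), of which the first was called and the second stayed under 2-fold. Without YS line 1 the rise in YS lines was 0.99 and no longer called. Ccne2 was at 35.45, 40.61 and 41.52 TPM in the YS lines, at 38.90, 27.78 and 39.18 TPM in the FL lines, and at 37.65, 34.65 and 35.69 TPM in the BM lines. These ranges overlapped throughout, with 95% intervals of -0.22 to 0.45 in YS against BM lines and -0.38 to 0.29 in FL against BM lines. Ccne1 made up 52.2% ± 7.33 (SD, n = 3) of E cyclin TPM in the YS lines and 50.04% ± 3.71 in the FL lines, but 34.4% ± 4.33 for the BM lines, with no BM line in the range of the others.

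Cdk2, the kinase of the E cyclins, was at 76.90, 68.16 and 108.3 TPM in the YS lines, at 90.48, 85.16 and 82.32 TPM in the FL lines, and at 63.47, 70.53 and 65.88 TPM in the BM lines. FL lines were above all BM lines, and YS line 2 lay inside the BM range. The differences from BM lines were 0.31 in YS lines (95% interval -0.06 to 0.68, adjusted p = 0.18) and 0.36 in FL lines (SE 0.16, adjusted p = 0.15). Neither passed, although the first passed without YS line 2 (adjusted p = 0.068) and the second without YS line 3 (adjusted p = 0.028) or with only FL and BM lines in the fit (adjusted p = 0.016).

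**Figure D3:**
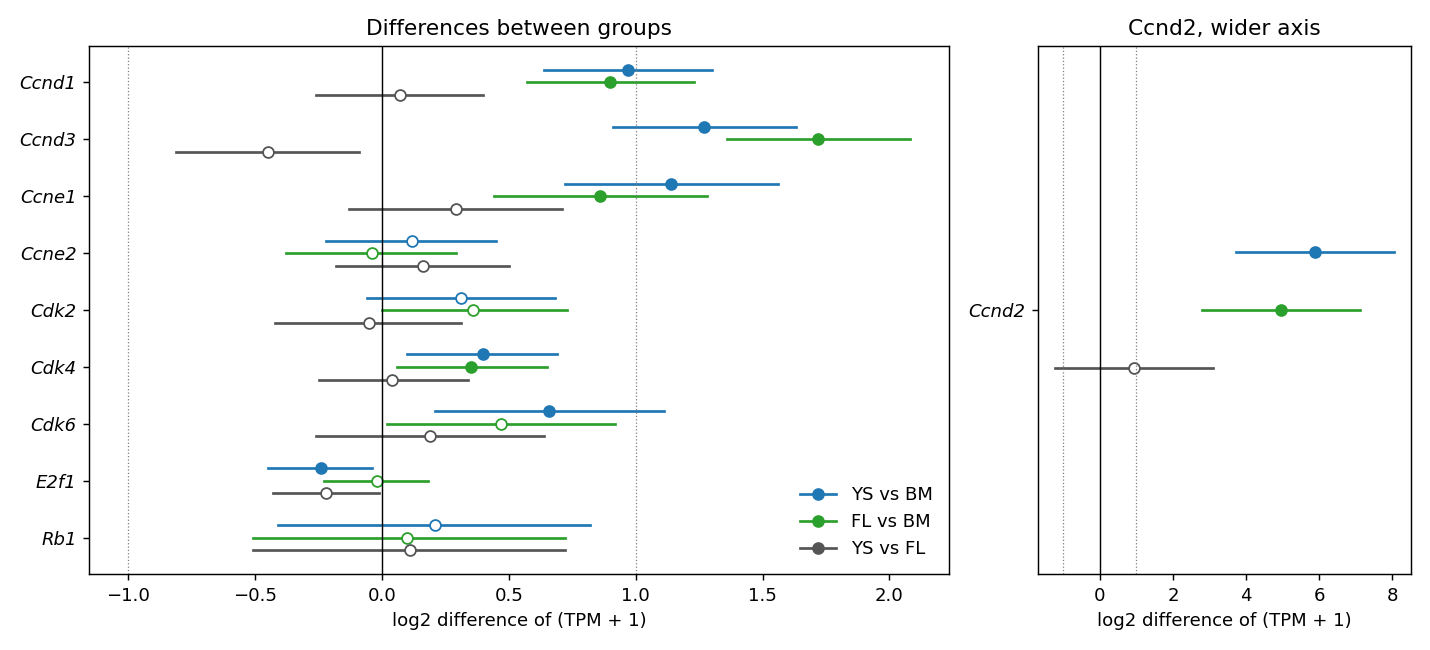
Differences of log2(TPM + 1) between groups for the 10 genes, with 95% intervals from limma as bars (Ccnd2 in its own panel with a wider axis). Filled points passed an adjusted p under 0.1, and dotted lines mark 2-fold. Differences from BM lines were positive for the D cyclins and Ccne1, and no difference between YS and FL lines passed.

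Ranked by mean TPM, Ccnd1 and Cdk4 came first and second in each group, with no overlap between them or with the next gene. The next place went to Ccnd2 in YS lines, which overlapped Ccnd3, to Ccnd3 in FL lines and to Cdk2 in BM lines. Ccnd2 was last in BM lines, below Ccne1 without overlap. In YS lines Cdk6, E2f1, Rb1, Ccne1 and Ccne2 formed a run of overlapping neighbours between 26.51 and 63.85 TPM.

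For the genes called in any comparison, the genes with the nearest pattern over the 9 lines were found by the root mean square difference of centred log2(TPM + 1). Nearest to Ccnd2 were Tlr7, a receptor for single-stranded RNA (0.53), Il21r, the interleukin-21 receptor (0.635), and Was, an actin regulator of blood cells (0.644). Each was at or under 0.12 TPM in the BM lines 1 and 3 and between 5.43 and 19.61 TPM in BM line 2. The choice by nearness to Ccnd2 selects for such values, and each gene also meets the rule used above to read BM line 2 against YS line 2. Nearest to Ccnd3 were Dusp6, an ERK phosphatase (0.132), Mtus1 (0.151) and Clta, a clathrin light chain (0.173). Dusp6 was at 167.4 to 247.5 TPM in the YS lines, 277.0 to 344.1 TPM in the FL lines and 74.69 to 98.73 TPM in the BM lines. Nearest to Ccne1 were Rangrf (0.13), Baz2b (0.152) and Pop4, a subunit of ribonuclease P (0.167).

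Genes around these 10 were read from lists. Among 44 E2F target genes of the G1 to S step, 25 (56.8%) rose and 2 fell in YS lines relative to BM lines. This was at an adjusted p under 0.1, with a median of 0.50, where 23.5% of all genes rose and 14.4% fell. In FL lines 7 (15.9%) rose and 6 fell relative to BM lines, against 17.0% and 10.6% of all genes, with a median of 0.07. In YS lines 10 rose and none fell relative to FL lines, against 6.20% and 6.56% of all genes, with a median of 0.40. Without YS line 1 the counts of genes that rose were 23, 9 and 11, without YS line 3 they were 25, 10 and 16, and without BM line 2 they were 20, 6 and 6. In the YS lines many targets were therefore higher, while E2f1 mRNA itself was not. The called targets were Dnmt1, the maintenance DNA methyltransferase, and Pola2, a subunit of DNA polymerase alpha. Dnmt1 was at 278.8, 195.0 and 484.5 TPM in the YS lines, 109.5 to 177.3 TPM in the FL lines and 118.5 to 131.3 TPM in the BM lines, with rises of 1.25 over BM lines (adjusted p = 0.019) and 1.13 over FL lines (adjusted p = 0.068). Without YS line 3 both fell under 2-fold (0.89 and 0.78). The call over FL lines was also lost without YS line 1 (adjusted p = 0.1), FL line 2 (0.19), FL line 3 (0.18) or any 1 BM line (0.11 to 0.12). Pola2 was at 31.56, 22.66 and 24.09 TPM in the FL lines and 51.09 to 53.94 TPM in the BM lines, with means of 26.1 ± 4.78 and 52.7 ± 1.46 TPM (SD, n = 3, limma adjusted p = 0.0057). It stood at the 2-fold limit, and without FL line 2, FL line 3, BM line 1 or BM line 3 it was no longer past it. Pcna, the clamp of replicative polymerases, was chosen after its values were seen. It fell relative to BM lines by 0.56 in YS lines (adjusted p = 0.0045) and by 0.40 in FL lines (adjusted p = 0.017). Of the 6 genes for later cyclins and CDK1, 5 were tested and none passed in any comparison in limma. Without YS line 3, 1 fell in YS against BM lines, and without YS line 1, 1 fell in FL against BM lines.

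**Figure D4:**
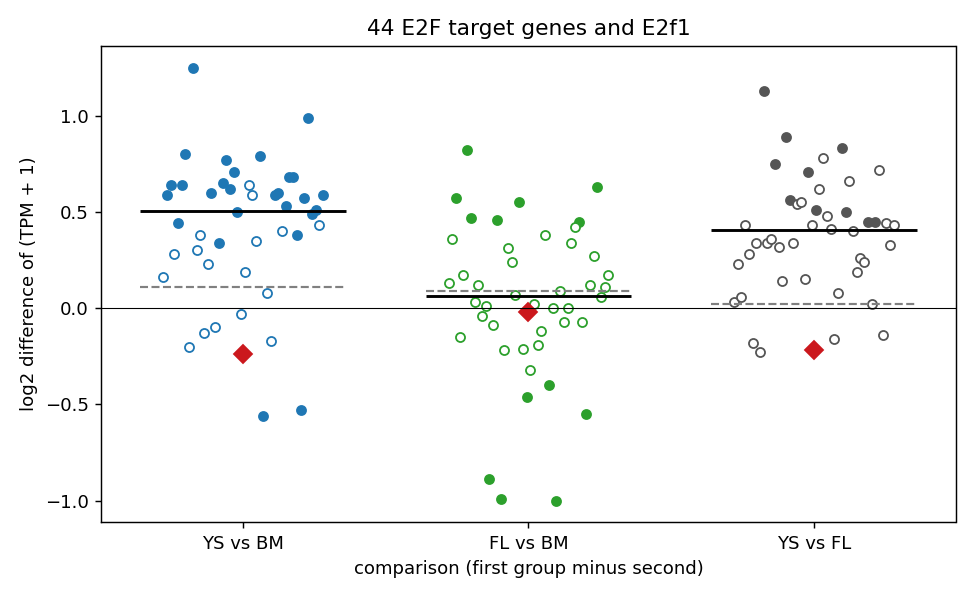
Differences of log2(TPM + 1) for 44 E2F target genes in each comparison, as circles (filled at an adjusted p under 0.1), with their median as a solid bar, the median of all 11753 genes as a dashed bar and E2f1 as a red diamond. The medians of the targets are 0.50, 0.07 and 0.40 from left to right, while E2f1 lies at -0.24, -0.02 and -0.22.

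Among 11 other pocket protein, E2F and DP genes, 2 (18.2%) rose and 2 fell in YS against BM lines. In FL against BM lines 1 (9.09%) rose, and in YS against FL lines 1 fell. Of all genes, 23.5% rose and 14.4% fell in YS against BM lines. In FL against BM lines 17.0% of all genes rose, and in YS against FL lines 6.56% fell. Without BM line 2 none of the 11 genes passed, and without YS line 3, 3 rose and none fell in YS against BM lines. The called gene was E2f5, which encodes a repressive E2F. It was at 9.57, 14.86 and 6.47 TPM in the YS lines and 19.53 to 22.89 TPM in the BM lines, a difference of -1.05 (adjusted p = 0.048), where 5.22% of all genes were called lower. This call was lost without YS line 3 (-0.78, adjusted p = 0.11) or without any 1 BM line (adjusted p 0.11 to 0.14). Of 7 CDK inhibitors only Cdkn1a, which encodes p21, passed, although without YS line 3 another gene fell in YS lines relative to BM lines. It was at 23.98, 81.41 and 83.47 TPM in the YS lines, at 69.65, 465.8 and 387.5 TPM in the FL lines, and at 0, 11.50 and 0 TPM in the BM lines. The fitted rise was 4.59 in YS lines (adjusted p = 0.017) and 6.66 in FL lines (adjusted p = 0.0044), and the BM lines other than line 2 were listed at 0. Like Ccnd2, Cdkn1a meets the rule that defines the 45 genes read in BM line 2 against YS line 2. Without BM line 2 the rises were 5.80 and 7.87, and without BM line 1 or BM line 3 they were 3.98 and 6.05. Without YS line 1 the first was 5.17, and without FL line 1 the second was 7.52. Thus an inhibitor of CDKs and a D cyclin were both far higher in the embryonic groups.

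Of 8 enzymes that activate or tune CDKs, 2 (25%) rose in YS lines and 1 fell in FL lines relative to BM lines. Between YS and FL lines 1 enzyme rose and 1 fell. None was called. Of 12 genes of cyclin D and E turnover, 4 (33.3%) rose and 1 fell in YS lines relative to BM lines. In FL lines 2 (16.7%) rose and 1 fell relative to BM lines, and 1 rose and 1 fell in YS against FL lines. Beside both lists, 23.5% of all genes rose and 14.4% fell in YS against BM lines. These shares were 17.0% and 10.6% in FL against BM lines and 6.20% and 6.56% in YS against FL lines. Without YS line 1, 5 turnover genes rose in FL lines relative to BM lines. Skp2, whose ubiquitin ligase complex targets p27 and cyclin E, was called. It was at 71.62, 45.92 and 33.80 TPM in the YS lines and 17.52 to 19.16 TPM in the BM lines, a rise of 1.33 (adjusted p = 0.0064). In the FL lines it was at 26.99 to 34.24 TPM, a rise of 0.70 that passed (adjusted p = 0.073) but was not called.

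Of 21 genes that carry M-CSF signals towards the D cyclins, 10 (47.6%) rose and 1 fell in YS lines relative to BM lines. The counts were the same in FL lines. Of all genes, 23.5% rose and 14.4% fell in YS lines, and 17.0% rose and 10.6% fell in FL lines. Without BM line 2 the list counts were 7 and 1 in both. Without YS line 1 they were 7 and 1 in YS lines and 14 and 1 in FL lines. Between YS and FL lines none rose and 2 fell, against 6.20% and 6.56% of all genes. The receptor gene Csf1r was at 1086 to 1889 TPM in the YS lines, 2145 to 2441 TPM in the FL lines and 1811 to 1879 TPM in the BM lines, and did not pass in any comparison (adjusted p 0.15 to 0.42). Among the called genes were Maf, Ets2 and Fos in both groups and Jun in FL lines. Maf, a transcription factor that restrains macrophage self-renewal, was at 187.9 to 285.8 TPM in the YS lines, 241.0 to 407.2 TPM in the FL lines and 17.44 to 51.44 TPM in the BM lines, with rises of 2.97 and 3.41 (adjusted p = 0.002 and 0.00099). Fos, an immediate early gene, was lower in each YS and FL line (26.03 to 80.92 TPM) than in BM lines (145.3 to 198.1 TPM), with differences of -1.58 and -2.11 (adjusted p = 0.0098 and 0.0032), where 4.30% of all genes were called lower in FL lines. Jun, its partner in AP-1, was at 167.7 to 206.5 TPM in the FL lines and 81.50 to 93.58 TPM in the BM lines. This rise of 1.05 (adjusted p = 0.0015) fell under 2-fold without FL line 3 (0.97) or BM line 3 (0.98). In the YS lines Jun was at 156.5 to 196.9 TPM, a rise of 0.92 that passed (adjusted p = 0.0029) but stayed under 2-fold.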

How the data were processed

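RNA-seq of 9 macrophage lines (3 YS, 3 FL and 3 BM, grouped by the sample labels) was analysed. TPM values for 24411 gene symbols were deposited by the authors in a single table. Its libraries were poly(A)-selected and stranded, with single reads of 75 nt. The submitters' processing notes name Trim Galore 0.6.6, STAR 2.7.9a and RSEM 1.3.3, with no role or order, and the genome build is not given in the sources used here. Values were transformed here to log2(TPM + 1), genes that reached 1 TPM in 3 or more of the 9 libraries were kept, and differences were tested with limma 3.58.1 in R 4.3.3 (all 9 libraries in one model, a trend of variance with intensity, p-values adjusted by Benjamini-Hochberg over 11753 genes for each comparison). The test was checked on simulated data. Since TPM hides the read depth, errors are spreads among lines.

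The 10 genes and all gene lists were chosen with earlier results of these data known. The text names all 10 genes, the called genes of each list (values for at most 4 per list, by adjusted p; 1 called gene is not reported here) and the 3 nearest patterns of each called gene of the 10. Myc, Csf1r, Pcna, the cell type markers with values and the genes beside Ccnd2, Ccnd3 and Rb1 were named outside this rule, after their values were seen. Lists were also read without YS line 1, YS line 3 or BM line 2, and their called genes with each line left out, alternatives chosen after seeing the data. Positions, overlaps and transcripts came from GENCODE M21 (GRCm38), and promoters from RefSeq (GRCm38.p6). The line numbers, shared by the groups, were checked for pairing: over 9 pairs of same-numbered lines, correlations of deviations from group means ran from -0.118 to 0.0878, so the numbers were not taken as pairs.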

Additional observations from a re-analysis of the deposited data

How the results depend on the processing

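The counts of called genes (3 in YS against BM lines, 2 in FL against BM lines, 0 in YS against FL lines) stayed within 1.5 times under another pseudocount, filter, scaling, variance trend, threshold of 0.05 or only the groups compared. With no fold threshold they were 7, 5 and 0. Leaving out each line in turn gave 3 to 4, 2 to 2 and 0 to 0. With the replicate block the counts were 3, 2 and 0. Of the single differences, only that of E2f1 in YS against BM lines no longer had an adjusted p under 0.1. Ccnd1, Ccnd2, Ccnd3 and Ccne1 kept an adjusted p under 0.1 against BM lines, in YS and in FL lines, under all 18 alternatives. Signs turned only in small differences that had not passed. Quantile normalization gave -0.03 for Ccne2 in YS against BM lines and -0.01 for Rb1 in FL against BM lines. Leaving out single lines gave ranges across 0 in YS against FL lines for Ccnd1 (-0.08 to 0.18), Cdk2 (-0.24 to 0.09), Cdk4 (-0.09 to 0.13), Cdk6 (-0.01 to 0.35) and Rb1 (-0.12 to 0.42). In FL against BM lines this held for Ccne2 (-0.13 to 0.11), E2f1 (-0.05 to 0.00) and Rb1 (-0.02 to 0.26), and in YS against BM lines for Rb1 (-0.02 to 0.52). The causes were not tested. TPM holds no depth, and 3 lines per group limit the precision.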

Other observations

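Cdkn2a, the gene of the CDK4 and CDK6 inhibitor p16 and of ARF, was uneven among the lines and was picked out after its values were seen. It was at 180.1, 143.2 and 92.18 TPM in the YS lines, at 171.1, 2.86 and 123.1 TPM in the FL lines, and at 49.92, 59.52 and 63.76 TPM in the BM lines. FL line 2 was far below the others, and the same line had the highest Cdkn1a (465.8 TPM) and the lowest Ccna2 (76.39 TPM, against 135.9 to 314.2 TPM elsewhere). In FL line 2 the D cyclin total of 1065 TPM was close to those of the other FL lines, 1056 and 1009 TPM. Cdkn2a did not pass the limma test in any comparison (adjusted p 0.42 to 0.84), and p16 and ARF transcripts share this symbol.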
